A study of Homo sapiens with 9 samples.

Results

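The 45 genes described here make the proteins that copy DNA in S phase and open the way into it. They were taken by symbol from a table of 62710 genes, all 45 were found, and all 45 had enough counts to be tested, as had 23075 genes in all. They fall into 10 roles, from origin recognition and the MCM2-7 helicase through the polymerases, the sliding clamp and Okazaki fragment maturation to deoxynucleotide supply and chromatin assembly. The question put to them was whether bending the plate on which early neuroepithelium grows changed their mRNAs, and how they varied between the replicate numbers of the libraries.

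The cells were wild-type H9, an established line of human embryonic stem cells, so every group comes from 1 line. They were grown for 72 h in the pluripotency medium mTeSR1 on Matrigel-coated silicone (PDMS) plates and for 48 h in N2B27 medium with SB431542 and LDN, inhibitors that together block both SMAD branches of TGF-beta family signalling. For 24 h more, under the same inhibitors, the plate was bent to a concave shape, bent to a convex shape or kept flat as the control. Each shape had 3 libraries, numbered 1 to 3, made from poly(A) mRNA, and each held between 49420082 and 64763412 counts. Whether the 3 libraries of a shape stem from different cultures is left unsaid by the labels, so a p-value here sets differences against a spread that may be technical. The meaning of the replicate number is not given there. Values are CPM, counts scaled to a common library total by TMM, and values of a shape are given for libraries 1, 2 and 3 in that order; concave 1 is the concave library numbered 1. A mean is given ± SD with n = 3 libraries unless stated. Gene positions are those of GENCODE v29 on GRCh38.

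The cultures held mRNAs of both the state they left and the state they were moving to. POU5F1, a pluripotency factor, ran from 206 to 512 CPM over the 9 libraries, SOX2, shared by both states, from 470.1 to 822 CPM, and PAX6, a neuroectoderm factor, from 1.09 to 7.10 CPM. NANOG and SIX6 were under 1 CPM in all 9. Of the markers of other cells, 6 of 10 for non-neural ectoderm and amnion, 5 of 8 for mesendoderm and 5 of 10 for fibroblast, endothelial and blood cells were under 1 CPM in every library.

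Replication begins at origins. The origin recognition complex, with CDC6 and CDT1, loads the MCM2-7 ring in G1, and in S phase CDC45 and the GINS complex turn the ring into an active helicase. Polymerase alpha with its primase starts each strand, polymerases epsilon and delta extend it, and PCNA, loaded by the RFC complex, holds them on the template. Many of these genes are transcribed as cells enter S phase, under E2F factors that the RB family holds in check until cyclin E and its kinase act. Pluripotent cells are known for a short G1 phase and a large share of cells in S phase. In a bulk library, fewer cells in S phase and less of these mRNAs per cell cannot be told apart.

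Promoter windows of the replication genes often held a word that E2F factors can bind, and the stretches below show how the word lies in 4 of them, beside 2 genes that follow the replicate numbers without it. RefSeq windows on GRCh38.p14, from 250 bases before to 50 bases after each start, matched 38 of the 45 genes by symbol. The words searched, on both strands and with overlaps allowed, were TTTGGCGC, TTTCGCGC, TTTCCCGC and TTTGCCGC. At least 1 of them was found in 18 of 38 replication genes (47.4%), against 3.99% of all 27305 genes in the table, and in 39.1% of the replication genes' windows, against 3.31% of all windows. Written 5′ to 3′ on the gene's strand, capitals mark the words in the stretches of MCM6 (chr2:135876502-135876553, minus strand), PCNA (chr20:5126654-5126701, minus strand), E2F1 (chr20:33686386-33686438, minus strand) and POLE (chr12:132687343-132687380, minus strand), with bases on either side.
MCM6: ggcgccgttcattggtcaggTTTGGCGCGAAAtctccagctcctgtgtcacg
PCNA: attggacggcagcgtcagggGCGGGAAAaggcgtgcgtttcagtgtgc
E2F1: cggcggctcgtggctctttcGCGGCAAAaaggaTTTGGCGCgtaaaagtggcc
POLE: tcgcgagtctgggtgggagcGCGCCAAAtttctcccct
In MCM6 a pair of words overlaps, read from opposite strands, and E2F1, which makes the factor itself, holds a separate pair. All of these stretches lie upstream of the RefSeq start, those of MCM6 and PCNA also upstream of the GENCODE gene, and those of POLE and E2F1 reach past its first base.

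The pentamer CCAAT, searched on both strands, was found in 57.9% of the 38 replication genes, against 39.7% of all genes, and in 84.2% of 19 matched genes of G2 and mitosis, of which 10.5% held an E2F word. RRM2 (chr2:10122606-10122687, plus strand) held 3 copies and ORC6 (chr16:46689545-46689605, plus strand) held 2, marked in capitals, and no E2F word lay in their windows.
RRM2: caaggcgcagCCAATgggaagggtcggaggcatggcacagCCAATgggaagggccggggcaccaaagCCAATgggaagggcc
ORC6: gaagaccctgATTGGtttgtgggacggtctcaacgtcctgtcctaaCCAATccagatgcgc
The ORC6 stretch lies upstream of the GENCODE gene, and that of RRM2 inside it, since GENCODE has an earlier start. Both genes are among those that differed between replicate numbers. A match of letters is a description of the window, not evidence of binding. Likewise, the lack of the searched words is not evidence that a gene has no E2F site.

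Levels of these mRNAs differed by role and within complexes. Per kb of transcript, the scale on which genes are compared here, PCNA had the highest mean, 175.8 ± 27.3 CPM per kb over the 9 libraries. MCM3 followed at 161 ± 14.7 and MCM7 at 156 ± 27.3, and the ranges of these 3 genes over the libraries overlapped. Within each library PCNA lay above MCM7. It also lay above MCM3 in each except concave 1, which had 126 CPM per kb of PCNA and 135 of MCM3. The lowest were POLA2, the accessory B subunit of polymerase alpha, at 3.93 ± 1.06 CPM per kb and CCNE2, the second E-type cyclin, at 1.19 ± 0.504. Subunits that work in equal numbers were not level as mRNAs. Across the MCM2-7 ring the highest mean, of MCM3, was 3.16 times the lowest, of MCM2, which was the lowest of the ring in all 9 libraries. In the GINS complex the ratio was 4.81, GINS2 over GINS3, and among the small RFC subunits it was 2.65, RFC4 over RFC5, with the same order of the 4 subunits in all 9 libraries. Of the 5 complexes compared, RPA was the most even, at 1.66, and polymerase alpha-primase the least, at 6.36. That last ratio sets POLA1 over POLA2, whose level is uncertain, since POLA2 shares 2012 exon bases with AP000944.2 on the same strand. Over all libraries PRIM1, the catalytic primase subunit, varied least, 1.19-fold between its lowest and highest library, and CCNE2 most, 4.42-fold. The median was 1.66-fold, with 14 genes under 1.5-fold and 7 at or above 2-fold.

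**Figure D1:**
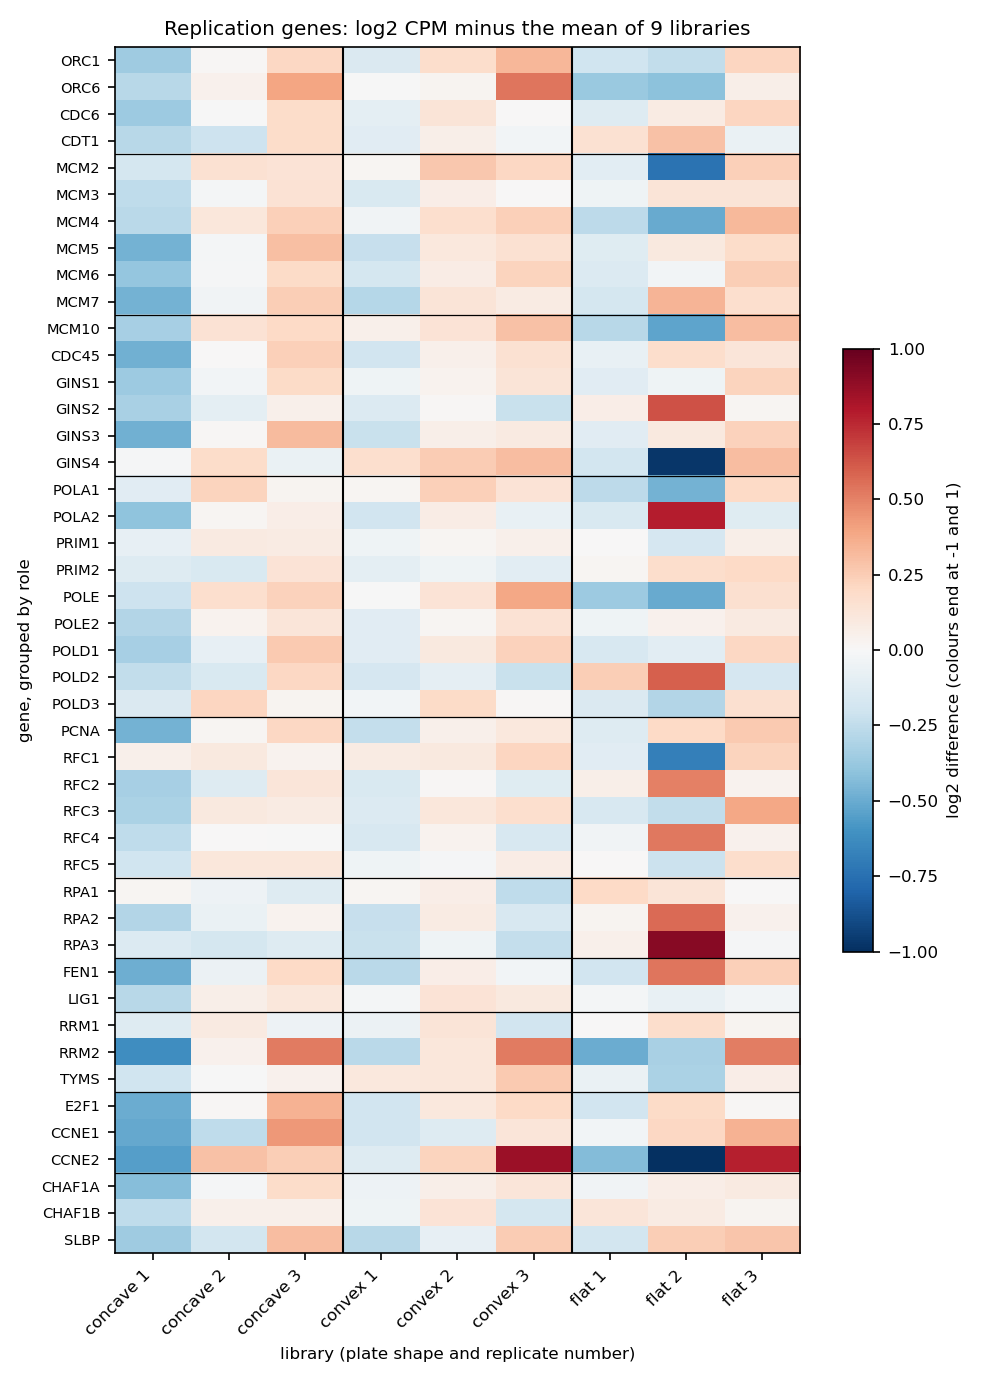
Heat map of the 45 replication genes in rows, grouped by role, and the 9 libraries in columns, concave, convex and flat. Colour is log2 CPM minus the gene's mean over 9 libraries: concave 1 is blue in most rows, flat 2 holds both the strongest blue (CCNE2) and the strongest red (RPA3), and libraries numbered 3 are mostly red.

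None of the 45 genes passed the test between plate shapes. A gene was called where its Benjamini-Hochberg adjusted p over all genes was under 0.05 in edgeR's quasi-likelihood test. Concave against flat cultures, convex against flat and concave against convex each called 0 of 45 and 0% of all 23075 genes. At an unadjusted p under 0.05 there were 1, 1 and 0 replication genes, beside 4.54%, 9.25% and 0.282% of all genes, and the 1 gene was RPA3 each time. DESeq2 also called 0 of the 45, with 1, 1 and 0 at that p, and limma voom 0, with 0, 0 and 0. With the replicate number as a block in edgeR, 2, 3 and 0 were under that p, beside 8.87%, 18.3% and 0.637% of all genes. Against flat these were RPA3, lower, and ORC6, higher, for both curved shapes, and POLE, higher, for convex. Concave cultures had 16 of the 45 above flat and 29 below, with a median log2 difference of -0.09, beside 0.01 over all genes. Convex cultures had 22 above flat and 23 below, with a median of -0.01, and concave ones had 10 above convex and 35 below, with a median of -0.05. These medians turned with single settings: the convex one was 0.04 with scaling by library size alone, and without concave 1 concave lay at 0.05 against flat and 0.07 against convex. Without both concave 1 and flat 2 these were 0.04 and 0.07. The comparisons with flat share the flat libraries. The smallest adjusted p of the 45 was 0.841 for concave and 0.513 for convex against flat (edgeR).

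Within number-matched pairs the concave libraries did not stand to the others in the same way for each number. For number 1, 40 of the 45 genes were lower in concave than in flat, with a median log2 CPM difference of -0.21. For number 2 it was 25 of 45, with a median of -0.08, and for number 3 it was 23 of 45, with a median of -0.01. Against convex, 43 of 45 were lower in concave for number 1, 37 for number 2 and 13 for number 3, with medians of -0.21, -0.07 and 0.06. Concave 1 was the lowest of the 9 libraries for 28 of the 45 genes, as it was for 11.9% of all genes. In all 3 pairs, 2 genes were higher in concave than in flat (ORC6 and POLE, 11.3% of all genes) and 9 were lower (12.5% of all genes). In all 3 convex and flat pairs, 7 genes were higher in convex (24.3% of all genes) and 16 lower (25.3% of all genes). No gene was higher in concave than in convex in all 3 pairs (9.93% of all genes), and 8 were lower (11.8% of all genes). Counts of genes higher in all pairs were under those shares and counts of lower ones over them, a difference that was not tested.

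**Figure D2:**
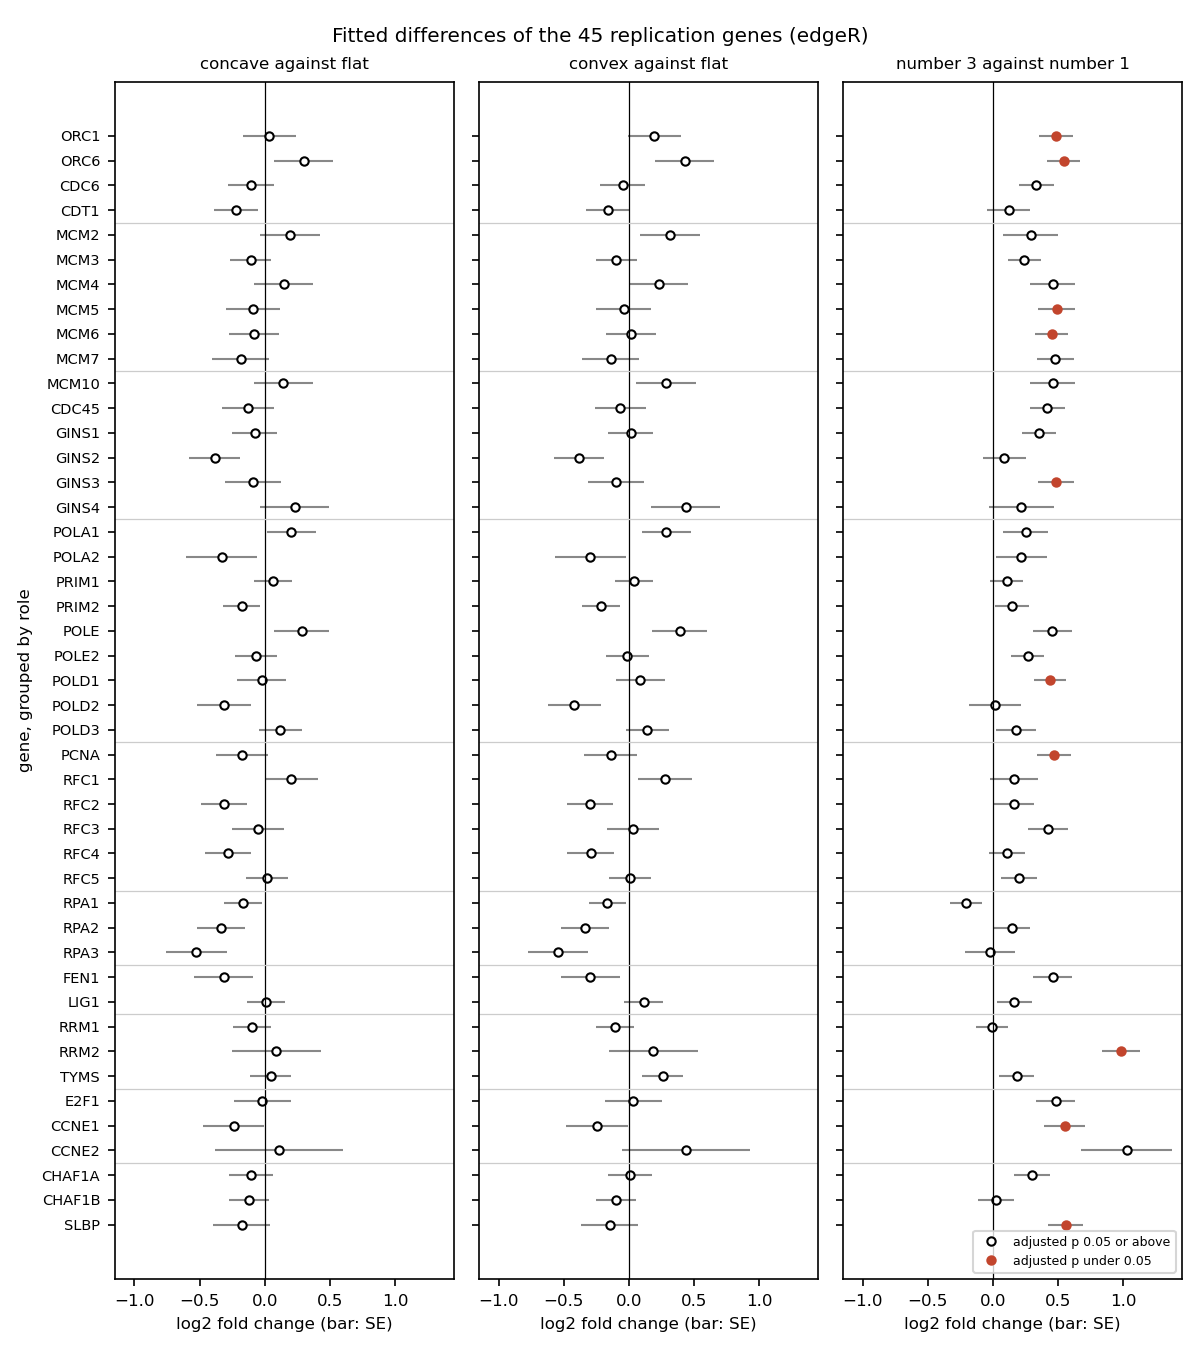
Fitted log2 differences of the 45 replication genes with bars of 1 SE, for concave against flat, convex against flat and number 3 against number 1. No point is filled in the panels of plate shape, and 10 are filled (edgeR adjusted p under 0.05) in the panel of numbers, all to the right of 0.

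Libraries numbered 3 had more of these mRNAs in sum than those numbered 1 within every shape. With plate shape in the model, 10 of the 45 genes (22.2%) were higher in number 3 (edgeR adjusted p under 0.05), against 6.74% of all genes, and 0 were lower, against 7.93% of all genes, which makes 14.7% in either direction. The median SE was 0.141 for the 45 genes and 0.237 over all genes, so the 45 were measured more precisely. The part of this in the shares called was not tested. The 10 were RRM2, SLBP, ORC6, CCNE1, ORC1, MCM5, GINS3, PCNA, MCM6 and POLD1, with at least 1 gene of each role except RPA and Okazaki fragment maturation. The median log2 difference of the 45 was 0.29, beside 0.01 over all genes, with 42 higher and 3 lower. RPA1, RPA3 and RRM1 were the 3. At an unadjusted p under 0.05 there were 21 of the 45, against 30.1% of all genes. The summed level of the 45 genes was 6393 ± 169 CPM in libraries numbered 3, against 5124 ± 378 CPM in those numbered 1. Of the 45, 30 lay above number 1 in all libraries of number 3 (19.8% of all genes) and 1, RPA1, below (21.5% of all genes). Within each of the 3 shapes 32 were higher in number 3 (28% of all genes) and RPA1 was lower (28.9% of all genes), with median log2 CPM differences of 0.45 in concave, 0.17 in convex and 0.31 in flat cultures.

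The count of 10 rested on single libraries. It was 0 without concave 1 and 1, RRM2, without each of concave 3, convex 1, convex 2, convex 3 and flat 1. It was 5 without flat 3, 6 without concave 2 and 20 without flat 2. RRM2 was called in 8 of these 9 fits, SLBP, ORC6 and CCNE1 in 3, ORC1 in 2, and MCM5, MCM6, GINS3, PCNA and POLD1 in 1, the fit without flat 2. The highest adjusted p of the 10 genes in these fits was 0.332, of GINS3 (edgeR). That libraries numbered 3 stand apart was known before these tests, and no p-value allows for it. Scaling by library size alone moved the median of all genes by -0.12 (log2) and left 2 of the 45 called. The median of the 45 then lay 0.29 above that of all genes, and 0.28 above it under TMM. The direction held for 36 of 45 under library size alone and for 40 to 43 under the other scalings.

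Number 3 lay above number 2 by less in the median, and RRM2 alone passed: 1 of 45 genes (2.22%) was called higher, against 5.82% of all genes (11.6% in either direction), with a median log2 difference of 0.10 and 33 of 45 higher. Of the 45, 0 were called lower, against 5.78% of all genes. Without overlap, 12 lay above number 2 (15.8% of all genes) and 2, RRM1 and CHAF1B, below (15.9% of all genes), and within each shape 18 were higher (21.1% of all genes) and 4 lower (21.7% of all genes). Between number 2 and number 1 no gene was called, 0 of 45 and 0% of all genes (edgeR), with 11 of the 45 and 8.54% of all genes at an unadjusted p under 0.05. There DESeq2 called 0 of the 45 and 147 of all genes, and limma voom 0 of both. The median was 0.20, with 41 of 45 higher in number 2, of which 16 did not overlap (6.75% of all genes), while 0 lay below (8.1% of all genes). Within each shape 25 were higher in number 2 than in number 1 (17.8% of all genes) and 0 lower (20.1% of all genes). An F test over the 3 numbers called RRM2 and ORC6 (edgeR adjusted p = 0.00811 and 0.0400), 2 of 45, against 11.8% of all genes.

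Among the origin recognition and licensing genes, 2 of 4 were higher in number 3 than in number 1. ORC6 (ENSG00000091651, chromosome 16, 46689643 to 46698394) encodes the smallest subunit of the origin recognition complex. It had 62.9, 78.5 and 100.5 CPM in concave libraries, 76.4, 77.9 and 110.4 CPM in convex ones and 59.2, 57.6 and 79.7 CPM in flat ones. The number 3 library was the highest of each shape and the flat library the lowest of each number, and the shapes overlapped. ORC6 averaged 96.9 ± 15.7 CPM in libraries numbered 3, against 66.2 ± 9.02 CPM in those numbered 1 (log2 difference 0.54, SE 0.127, edgeR adjusted p = 0.0237). By shape it averaged 80.6 ± 18.9 CPM in concave, 88.2 ± 19.3 CPM in convex and 65.5 ± 12.3 CPM in flat cultures, and neither difference from flat passed, 0.30 (edgeR adjusted p = 0.841) for concave and 0.43 (edgeR adjusted p = 0.513) for convex. ORC1 (ENSG00000085840, chromosome 1, 52372829 to 52404459) encodes the largest subunit of the complex, an ATPase. It stood at 79.9, 103 and 118 CPM in concave libraries, 92.1, 115 and 128 CPM in convex ones and 88.7, 86.0 and 119 CPM in flat ones. All 3 libraries numbered 3 were above all others, of which convex 2 was the nearest. ORC1 averaged 122 ± 5.84 CPM in libraries numbered 3, against 86.9 ± 6.31 CPM in those numbered 1 (log2 difference 0.49, SE 0.132, edgeR adjusted p = 0.0400).

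CDC6 and CDT1, the loaders that work with the complex, did not pass. CDC6 (ENSG00000094804, chromosome 17, 40287633 to 40304657) had 164, 211 and 239.5 CPM in concave libraries, 197, 231 and 212 CPM in convex ones and 193, 223 and 245 CPM in flat ones. Libraries numbered 1 were the lowest of each shape, with a log2 difference of 0.33 (edgeR adjusted p = 0.135) for number 3 against number 1. CDT1 (ENSG00000167513, chromosome 16, 88803213 to 88809258) had 100.2, 106 and 138 CPM in concave libraries, 113, 127 and 119.8 CPM in convex ones and 136, 149 and 116 CPM in flat ones. Flat 2 was the highest and concave 1 the lowest, and the numbers overlapped, with 0.12 (edgeR adjusted p = 0.684).

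All 6 genes of the MCM2-7 ring had a higher mean in number 3 than in number 1, and 2 passed. MCM6 (ENSG00000076003, chromosome 2, 135839626 to 135876426), whose promoter stretch is shown above, had 177, 229 and 263 CPM in concave libraries, 204, 243 and 269 CPM in convex ones and 209.9, 226 and 274 CPM in flat ones. The libraries of number 3 lay above all others, close together, and those of number 1 below all others. MCM6 averaged 269 ± 5.03 CPM in libraries numbered 3, against 197 ± 17.7 CPM in those numbered 1 (log2 difference 0.45, SE 0.126, edgeR adjusted p = 0.0445). MCM5 averaged 343 ± 19.0 CPM in libraries numbered 3, against 245 ± 30.01 CPM in those numbered 1 (log2 difference 0.49, SE 0.140, edgeR adjusted p = 0.0474). MCM7 (ENSG00000166508, chromosome 7, 100092728 to 100101940) had 328, 444 and 539 CPM in concave libraries, 374, 497 and 481 CPM in convex ones and 403, 575 and 510.4 CPM in flat ones. Number 1 was the lowest within every shape and flat 2 the highest library of all, and the difference between number 3 and number 1 missed the threshold at 0.48 (edgeR adjusted p = 0.0546). On the opposite strand MCM7 overlaps 392 bases of AP4M1 exons. MCM2 (ENSG00000073111, chromosome 3, 127598223 to 127622436) had 159.9, 202 and 199 CPM in concave libraries, 184, 218 and 209 CPM in convex ones and 168, 108 and 214 CPM in flat ones. Flat 2 stood far below the other libraries, which is the reverse of its place in MCM7, and MCM2 gave 0.29 (edgeR adjusted p = 0.404). MCM3 and MCM4 did not pass either, at 0.24 (edgeR adjusted p = 0.252) and 0.46 (edgeR adjusted p = 0.111).

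Of the 6 genes that turn the loaded ring into a running helicase, GINS3 alone passed. GINS3 (ENSG00000181938, chromosome 16, 58295080 to 58406144), a subunit of the GINS complex, had 18.0, 25.3 and 31.2 CPM in concave libraries, 21.5, 26.1 and 26.7 CPM in convex ones and 23.2, 26.8 and 29.4 CPM in flat ones. Number 1 was the lowest library of each shape and number 3 the highest of each. It averaged 29.1 ± 2.28 CPM in libraries numbered 3, against 20.9 ± 2.67 CPM in those numbered 1 (log2 difference 0.48, SE 0.141, edgeR adjusted p = 0.0496). CDC45 (ENSG00000093009, chromosome 22, 19479459 to 19520612), the partner of GINS in the active helicase, had 27.9, 39.0 and 45.9 CPM in concave libraries, 34.2, 40.5 and 43.4 CPM in convex ones and 37.0, 44.1 and 42.3 CPM in flat ones. Number 1 was again the lowest of each shape, and concave 1 the lowest of all, with 0.42 (edgeR adjusted p = 0.0743). GINS2 (ENSG00000131153, chromosome 16, 85676198 to 85690073) had 113, 131 and 146 CPM in concave libraries, 128, 142 and 121 CPM in convex ones and 147, 219 and 142 CPM in flat ones. Flat 2 was far above the rest. Concave 3 overlapped with the flat libraries, and convex did not, by a margin under the rounding of 142 CPM. Its means were 129.9 ± 16.6 CPM in concave, 130.2 ± 10.5 CPM in convex and 169.6 ± 43.1 CPM in flat cultures, with -0.38 (edgeR adjusted p = 0.841) for concave and -0.38 (edgeR adjusted p = 0.513) for convex against flat. Without overlap, convex lay below flat for 4 of the 45 genes (GINS2, PRIM2, RFC2 and RPA3, 7.76% of all genes) and above it for 1 (TYMS, 8.91% of all genes). MCM10, GINS1 and GINS4 gave 0.46 (edgeR adjusted p = 0.112), 0.35 (edgeR adjusted p = 0.0991) and 0.22 (edgeR adjusted p = 0.618) for number 3 against number 1.

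Primase and polymerase genes were the largest group, and 1 of 9 passed. POLD1 (ENSG00000062822, chromosome 19, 50384204 to 50418016), the catalytic subunit of polymerase delta, which extends the lagging strand, had 102, 121 and 154 CPM in concave libraries, 119, 137 and 150.3 CPM in convex ones and 115, 119.5 and 148 CPM in flat ones. The libraries numbered 3 lay above the other 6 and between 148 and 154 CPM. POLD1 averaged 151 ± 3.07 CPM in libraries numbered 3, against 112 ± 8.82 CPM in those numbered 1 (log2 difference 0.44, SE 0.125, edgeR adjusted p = 0.0474). It shares 426 exon bases with AC020909.1 on the same strand, which could affect its counts. POLE (ENSG00000177084, chromosome 12, 132623753 to 132687365), the catalytic subunit of polymerase epsilon on the leading strand, had 156, 203 and 212 CPM in concave libraries, 180.3, 198 and 236 CPM in convex ones and 140.03, 127 and 202 CPM in flat ones. Flat 2 was the lowest and convex 3 the highest, and in every number-matched pair both curved libraries were above the flat one. Its means were 190.4 ± 30.1 CPM in concave, 205 ± 28.6 CPM in convex and 156 ± 39.7 CPM in flat cultures. Against flat, POLE gave 0.28 (edgeR adjusted p = 0.841) for concave and 0.39 (edgeR adjusted p = 0.515) for convex, and it missed the threshold for number 3 against number 1 as well, at 0.45 (edgeR adjusted p = 0.0731). POLD2 (ENSG00000106628, chromosome 7, 44114681 to 44124358), an accessory subunit of polymerase delta, had 111, 119 and 152 CPM in concave libraries, 117, 124 and 113 CPM in convex ones and 157, 200.3 and 117 CPM in flat ones. Flat 2 was the highest and number 3 was not above number 1 in the convex or flat cultures, with 0.02 (edgeR adjusted p = 0.972) between the numbers and -0.42 (edgeR adjusted p = 0.513) for convex against flat. The other 6 ranged in log2 difference between number 3 and number 1 from 0.10 for PRIM1 to 0.27 for POLE2, with no adjusted p under 0.191 (edgeR). POLA2 shares 2012 exon bases with AP000944.2 on the same strand, so its level is uncertain.

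The sliding clamp passed and its loader did not. PCNA (ENSG00000132646, chromosome 20, 5114953 to 5126626), the ring that tethers the polymerases, had 169.7, 239 and 270.4 CPM in concave libraries, 199, 243 and 253 CPM in convex ones and 215, 269 and 281 CPM in flat ones. Number 1 was the lowest library of each shape and number 3 the highest of each, with concave 1 at the bottom. PCNA averaged 268 ± 14.4 CPM in libraries numbered 3, against 194 ± 23.0 CPM in those numbered 1 (log2 difference 0.47, SE 0.129, edgeR adjusted p = 0.0423). The gene has 3 pseudogenes by name, whose reads could be counted for it. RFC3 (ENSG00000133119, chromosome 13, 33818049 to 33966558), a small subunit of the loader, had 58.9, 78.6 and 77.6 CPM in concave libraries, 66.6, 79.4 and 82.4 CPM in convex ones and 65.5, 61.9 and 95.7 CPM in flat ones. Flat 3 was the highest and concave 1 the lowest, and the numbers differed by 0.42 (edgeR adjusted p = 0.0980). RFC2 (ENSG00000049541, chromosome 7, 74231499 to 74254458) had 55.4, 63.7 and 75.6 CPM in concave libraries, 62.6, 70.1 and 64.0 CPM in convex ones and 72.4, 98.4 and 71.4 CPM in flat ones. Flat 2 stood above all other libraries, and the convex libraries lay just below the flat ones, with -0.30 (edgeR adjusted p = 0.537) for convex against flat. The large subunit gene RFC1 went the other way in flat 2, where it had 86.7 CPM against at least 129 CPM in the other 8 libraries.

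None of the 3 RPA genes, whose products coat single-stranded DNA at the fork, passed between numbers or shapes. RPA1, the large subunit, averaged 197 ± 17.6 CPM in libraries numbered 3, against 227 ± 16.8 CPM in those numbered 1 (log2 difference -0.21, SE 0.123, edgeR adjusted p = 0.301). RPA3 (ENSG00000106399, chromosome 7, 7636518 to 7718607), the smallest subunit, had 38.4, 37.5 and 38.5 CPM in concave libraries, 36.2, 41.0 and 35.8 CPM in convex ones and 43.6, 79.3 and 41.8 CPM in flat ones. Flat 2 was far above the rest, the other 2 flat libraries lay just above the curved ones, and no curved library overlapped with flat. Its means were 38.2 ± 0.585 CPM in concave, 37.7 ± 2.87 CPM in convex and 54.9 ± 21.1 CPM in flat cultures. The fitted log2 differences were -0.52 (edgeR adjusted p = 0.841) for concave and -0.54 (edgeR adjusted p = 0.513) for convex against flat, and they were -0.16 (edgeR adjusted p = 1.000) and -0.19 (edgeR adjusted p = 0.985) without flat 2. RPA3 was the 1 replication gene of which concave lay below flat without overlap (2.96% of all genes), and 0 lay above (3.78% of all genes). RPA2 (ENSG00000117748, chromosome 1, 27891524 to 27914746) had 71.3, 83.0 and 89.3 CPM in concave libraries, 74.1, 92.0 and 77.9 CPM in convex ones and 88.9, 129 and 90.0 CPM in flat ones. Flat 2 was again the highest, well above flat 1 and flat 3, which overlapped with the curved libraries, and RPA2 gave -0.34 (edgeR adjusted p = 0.841) for concave against flat.

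Of the genes that finish the lagging strand neither passed. FEN1 (ENSG00000168496, chromosome 11, 61792637 to 61797244), the nuclease that trims the flap between Okazaki fragments, had 87.4, 118 and 141 CPM in concave libraries, 102, 128 and 120.5 CPM in convex ones and 107, 178 and 145 CPM in flat ones. Number 1 was the lowest of each shape and flat 2 the highest of all, so that number 2 reached past number 3. FEN1 gave 0.46 (edgeR adjusted p = 0.0720) for number 3 against number 1. LIG1 (ENSG00000105486, chromosome 19, 48115445 to 48170603), the ligase that seals the fragments, had 109, 138 and 143 CPM in concave libraries, 131, 146 and 142 CPM in convex ones and 131, 126 and 130.00 CPM in flat ones. Its flat libraries lay close together and the numbers overlapped, with 0.16 (edgeR adjusted p = 0.458).

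Among genes of deoxynucleotide supply, RRM2 had the smallest adjusted p of all 45 between numbers. RRM2 (ENSG00000171848, chromosome 2, 10120698 to 10131419) encodes the small subunit of ribonucleotide reductase, which limits the enzyme in cycling cells. It had 95.0, 150.2 and 209 CPM in concave libraries, 121, 157 and 209 CPM in convex ones and 103, 116 and 208 CPM in flat ones. The 3 libraries numbered 3 lay within 208 to 209 CPM in all shapes, and the highest of the other 6 was convex 2, at 157 CPM. RRM2 averaged 209 ± 0.864 CPM in libraries numbered 3, against 106 ± 13.1 CPM in those numbered 1 (log2 difference 0.98, SE 0.144, edgeR adjusted p = 0.00407). Number 2 lay between, at 141 ± 21.8 CPM, and number 3 exceeded it as well (log2 difference 0.57, SE 0.144, edgeR adjusted p = 0.0350). The call against number 1 was lost without concave 1 (log2 difference 0.87, edgeR adjusted p = 0.0513) and kept without each other library. The call against number 2 was kept without concave 2 (edgeR adjusted p = 0.0376) and lost without each other library, with adjusted p from 0.0516 without flat 2 to 0.138 without convex 2. By shape RRM2 averaged 152 ± 57.2 CPM in concave, 162 ± 44.4 CPM in convex and 142 ± 57.0 CPM in flat cultures, and the groups overlapped. RRM2 shares 1077 exon bases with AC007240.1 on the same strand and has 3 pseudogenes by name, whose reads could be counted for it.

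RRM1, the large subunit of the same enzyme, had another order of libraries than RRM2. RRM1 (ENSG00000167325, chromosome 11, 4094707 to 4138876) had 168, 197 and 178 CPM in concave libraries, 177, 202 and 162 CPM in convex ones and 185, 209 and 188 CPM in flat ones. Number 2 was the highest library of each shape, and number 3 against number 1 gave -0.01 (edgeR adjusted p = 0.971). TYMS (ENSG00000176890, chromosome 18, 657604 to 673578), the enzyme that makes thymidylate, had 32.4, 37.2 and 38.4 CPM in concave libraries, 40.0, 40.3 and 44.8 CPM in convex ones and 35.6, 29.9 and 39.1 CPM in flat ones. All convex libraries were above all concave and all flat ones, and concave overlapped with flat. Its means were 36.0 ± 3.17 CPM in concave, 41.7 ± 2.67 CPM in convex and 34.9 ± 4.64 CPM in flat cultures, with 0.26 (edgeR adjusted p = 0.544) for convex against flat and -0.21 (edgeR adjusted p = 1.00) for concave against convex, where TYMS was the 1 gene of the 45 below without overlap (2.08% of all genes), with 0 above (1.49% of all genes). On the opposite strand TYMS overlaps 967 bases of ENOSF1 exons.

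**Figure D3:**
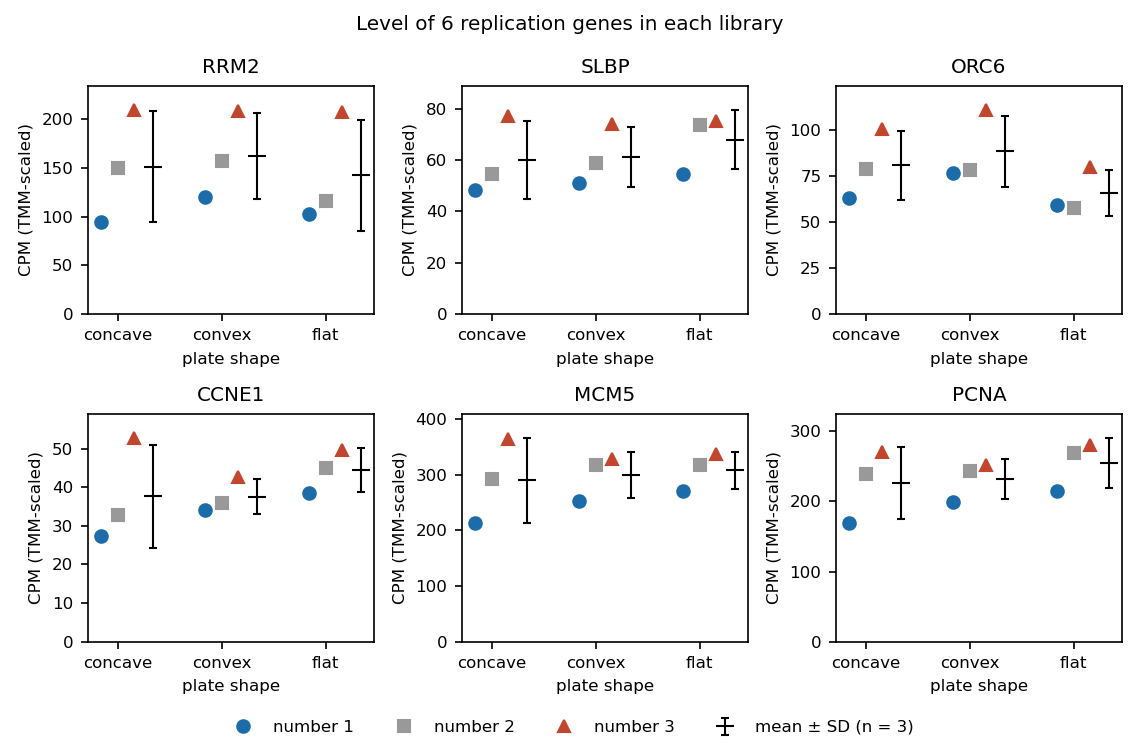
CPM of RRM2, SLBP, ORC6, CCNE1, MCM5 and PCNA in each library by plate shape, with the mean and SD of each shape beside the points. Circles, squares and triangles are numbers 1, 2 and 3, and the triangle is the highest point of each shape in all 6 panels, as at 208 to 209 CPM for RRM2.

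The genes of S phase entry had the highest median difference of the roles with more than 2 genes, 0.55, and 1 of 3 passed. CCNE1 (ENSG00000105173, chromosome 19, 29811898 to 29824308), a cyclin that drives cells from G1 into S phase, had 27.5, 32.8 and 52.7 CPM in concave libraries, 34.2, 35.8 and 42.6 CPM in convex ones and 38.4, 45.1 and 49.8 CPM in flat ones. Number 1 was the lowest and number 3 the highest library of each shape. CCNE1 averaged 48.4 ± 5.19 CPM in libraries numbered 3, against 33.3 ± 5.51 CPM in those numbered 1 (log2 difference 0.55, SE 0.155, edgeR adjusted p = 0.0458). CCNE2 (ENSG00000175305, chromosome 8, 94879770 to 94896678), its close relative, was scarce, at 2.25, 4.03 and 3.91 CPM in concave libraries, 3.02, 3.84 and 5.95 CPM in convex ones and 2.44, 1.35 and 5.64 CPM in flat ones. Flat 2 and the libraries numbered 1 were low, and convex 3 and flat 3 high. The log2 difference of CCNE2 was as large as that of RRM2 but with a wider error (log2 difference 1.02, SE 0.348, edgeR adjusted p = 0.0822). The lowest library held 64 counts of CCNE2, and on the opposite strand the gene overlaps 1629 bases of INTS8 exons. E2F1 (ENSG00000101412, chromosome 20, 33675683 to 33686404), the transcription factor whose promoter stretch is shown above, had 49.9, 71.1 and 89.6 CPM in concave libraries, 61.8, 75.9 and 80.7 CPM in convex ones and 61.7, 80.4 and 71.0 CPM in flat ones. Number 1 was the lowest library of each shape, and in flat cultures number 2 was above number 3, with 0.48 (edgeR adjusted p = 0.0629) for number 3 against number 1.

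SLBP passed among the genes of chromatin assembly and histone mRNA. SLBP (ENSG00000163950, chromosome 4, 1692800 to 1712555) encodes the protein that binds the stem-loop of replication-dependent histone mRNAs. It had 48.5, 54.6 and 77.1 CPM in concave libraries, 51.2, 58.7 and 73.9 CPM in convex ones and 54.7, 73.6 and 75.5 CPM in flat ones. The libraries numbered 3 lay within 73.9 to 77.1 CPM in all shapes, and flat 2 reached just below them. SLBP averaged 75.5 ± 1.57 CPM in libraries numbered 3, against 51.4 ± 3.09 CPM in those numbered 1 (log2 difference 0.56, SE 0.132, edgeR adjusted p = 0.0247). CHAF1A (ENSG00000167670, chromosome 19, 4402662 to 4445018), the large subunit of the histone chaperone CAF-1, had 95.8, 128 and 146 CPM in concave libraries, 124, 134 and 140.2 CPM in convex ones and 125, 135 and 137 CPM in flat ones. Concave 1 was far below the rest, and number 3 was the highest library of each shape, with 0.30 (edgeR adjusted p = 0.178). CHAF1B, the next subunit, gave 0.02 (edgeR adjusted p = 0.940).

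Values of the genes with an E2F word in a window are set here beside those of the genes without one. The 18 with a word had a median log2 difference of 0.31 between number 3 and number 1, and 3 of them were called (MCM6, GINS3 and PCNA). The 20 without a word had a median of 0.25, and 6 were called (ORC1, ORC6, POLD1, RRM2, CCNE1 and SLBP). The difference between these sets was not tested, and a gene without a searched word may still hold an E2F site.

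A pair of libraries stood apart in ways that touch these genes. In concave 1, 43 of the 45 genes were below their mean over the 9 libraries, against 38 in convex 1 and 33 in flat 1. Flat 2 was the lowest library for 13 of the 45 genes and the highest for 11, as it was for 29.8% and 27.7% of all genes. Its deviations ran with transcript length: the rank correlation over the 45 genes was -0.39, and -0.32 over all genes with a length, genes of 1 library that share its depth and preparation. Flat 1 had the same sign, at -0.25 over the 45 genes (-0.13 over all genes). Over the 45 genes it was of the opposite sign and larger in convex 2, at 0.61 (0.14 over all genes). It was 0.36 in convex 1, 0.31 in concave 2, 0.18 in convex 3, 0.10 in concave 1, 0.10 in flat 3 and -0.03 in concave 3. Short RPA3 was high in flat 2 and long POLE and RFC1 were low. Other genes went the other way. Flat 2 was the lowest library of short PRIM1, ORC6, RFC5 and TYMS, and the highest of POLA2, with 3744 bases. A correction for length left RPA3 at -0.34 for concave and -0.33 for convex against flat, with edgeR adjusted p = 0.938 and 0.599, and raised the count for number 3 against number 1 to 17 of 45. Across the alternatives other than leaving out 1 library, 2893 to 5193 of all genes were called there. The part of length in the other differences was not tested.

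**Figure D4:**
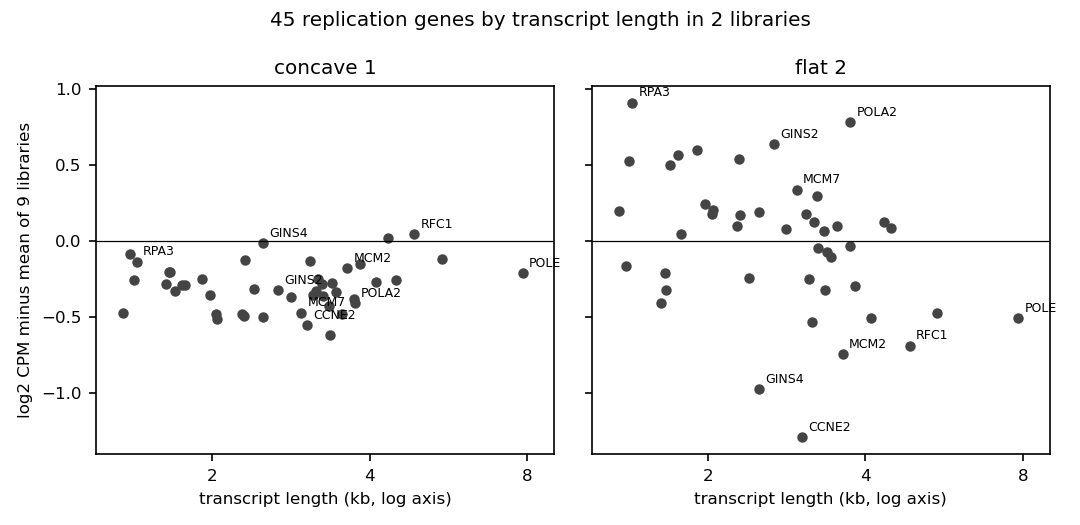
Log2 CPM minus the mean of 9 libraries for the 45 replication genes, against transcript length on a log axis, in concave 1 and in flat 2. In concave 1 nearly all points lie below 0 at every length. In flat 2 the rank correlation is -0.39, with short RPA3 above 0 and long POLE and RFC1 below it. Short PRIM1 and TYMS also lie below 0 there, and longer POLA2 above it.

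Some other genes of replication passed between numbers, where 6.74% of all genes were higher and 7.93% lower in number 3 than in number 1. Among 17 further licensing and firing factors, 3 were called higher in number 3 than in number 1 (17.6%) and 0 lower, with a median log2 difference of 0.28. GMNN, the geminin that inhibits CDT1, averaged 90.2 ± 3.46 CPM in libraries numbered 3, against 61.5 ± 8.79 CPM in those numbered 1 (log2 difference 0.57, edgeR adjusted p = 0.0254). DBF4, the activator of the CDC7 kinase, averaged 93.2 ± 1.79 CPM in libraries numbered 3, against 59.8 ± 6.35 CPM in those numbered 1 (log2 difference 0.64, edgeR adjusted p = 0.0307). TICRR, a firing factor, passed against number 2, at 94.4 ± 16.4 CPM in libraries numbered 3, against 60.9 ± 17.8 CPM in those numbered 2 (log2 difference 0.66, edgeR adjusted p = 0.0346). Of 14 further polymerase, clamp loader and Okazaki factors 4 were higher (28.6%) and 0 lower, among them RNASEH2B, a subunit of the nuclease that removes ribonucleotides from DNA, at 44.6 ± 1.13 CPM in libraries numbered 3, against 29.3 ± 2.74 CPM in those numbered 1 (log2 difference 0.61, edgeR adjusted p = 0.0141). POLE3 and TOP3A passed as well (edgeR adjusted p = 0.0378 and 0.0398). Fork protection and checkpoint genes had 1 of 13 called (7.69%, close to the share of all genes), RAD1 (edgeR adjusted p = 0.0469), and chromatin replication genes 0 of 14, with a median of 0.30. RNASEH2B was called in 5 of the 9 fits that each leave out a library, GMNN in 3, DBF4, POLE3 and TOP3A in 2 and RAD1 in 1, and none of these without concave 1, where their adjusted p lay between 0.136 (RNASEH2B) and 0.266 (POLE3). The TICRR call was kept in 3 of 9, those without concave 2, concave 3 or flat 2, and its adjusted p reached 0.173 without convex 3.

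Of 16 other nucleotide supply enzymes 4 were higher in number 3 than in number 1 (25.0%, against 6.74% of all genes) and 0 lower. MTHFD1, a folate enzyme, averaged 124 ± 8.30 CPM in libraries numbered 3, against 77.0 ± 3.91 CPM in those numbered 1 (log2 difference 0.69, edgeR adjusted p = 0.0138). UMPS and CTPS1, enzymes of pyrimidine synthesis, also passed (edgeR adjusted p = 0.0154 and 0.0274), in 4 and 3 of the 9 fits that leave out a library. Among 22 other G1/S regulators 3 were higher (13.6%, against 6.74% of all genes) and 0 lower (7.93% of all genes). In either direction this made 13.6%, against 14.7% of all genes. CDK6, a kinase that acts on RB with D-type cyclins, averaged 67.6 ± 11.4 CPM in libraries numbered 3, against 33.1 ± 2.75 CPM in those numbered 1 (log2 difference 1.02, edgeR adjusted p = 0.0107). CDC25A, the phosphatase that activates CDK2, averaged 131 ± 1.49 CPM in libraries numbered 3, against 72.1 ± 12.7 CPM in those numbered 1 (log2 difference 0.87, edgeR adjusted p = 0.00621), and its libraries numbered 3 lay between 130.02 and 133 CPM. CDC25A was called without each library except concave 1 (edgeR adjusted p = 0.0683), and CDK6 and MTHFD1 were lost without concave 1 (edgeR adjusted p = 0.0871 and 0.124), convex 1 (0.0859 and 0.113) or convex 3 (0.0712 and 0.0831). CDK6, CDC25A and CCND1 passed against number 2 too (edgeR adjusted p = 0.00843, 0.0421 and 0.0304). Of these, the CDK6 call was lost without convex 2 (edgeR adjusted p = 0.0552) or convex 3 (0.0691), and the CCND1 call was kept without concave 2 or flat 2 alone, with an adjusted p of up to 0.151 otherwise. The CDC25A call was lost without any one of the 9 libraries (0.0502 to 0.174). Of 6 tested among 8 inhibitors of cyclin-dependent kinases 1 was lower (16.7%, against 7.93% of all genes) and 0 higher: CDKN1C, known as p57, averaged 27.6 ± 2.00 CPM in libraries numbered 3, against 64.0 ± 13.6 CPM in those numbered 1 (log2 difference -1.20, edgeR adjusted p = 0.0289). It was called in 3 of the 9 fits that leave out a library, and without concave 1 gave an edgeR adjusted p of 0.198.

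Genes of G2 and mitosis gave no call. None of 24 passed between any numbers or shapes (edgeR), and their median log2 difference between number 3 and number 1 was 0.08, with 15 of 24 higher. Their summed level ran from 4982 to 5626 CPM in libraries numbered 3, against 5152 to 5401 CPM in those numbered 1. CCNB2, a B-type cyclin, averaged 130.1 ± 13.2 CPM in libraries numbered 3, against 161 ± 24.8 CPM in those numbered 1 (log2 difference -0.29, edgeR adjusted p = 0.228). BIRC5, which makes survivin, gave a log2 difference -0.12, edgeR adjusted p = 0.695, and BUB1, a spindle checkpoint kinase, gave a log2 difference 0.21, edgeR adjusted p = 0.537.

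Markers of cell state moved with the replicate number beside the replication genes. The 12 pluripotency markers summed to between 4886 and 4979 CPM in libraries numbered 3, against 3199 to 3474 CPM in those numbered 1 and 3109 to 3421 CPM in those numbered 2. Of 11 tested, 7 were called higher in number 3 than in each (6.74% and 5.82% of all genes). The 14 early neuroectoderm markers summed to between 1846 and 2149 CPM in number 3, against 2992 to 3121 CPM in number 1 and 2978 to 4520 CPM in number 2. DLK1, SOX2, NES and OTX2 made most of this sum. DLK1 had 51.7 to 165 CPM in number 3, against 580 to 877 CPM in the other libraries except flat 2, with 1769 CPM. SOX2, shared by both states, had 470 to 578 CPM in number 3, against 739 to 822 CPM in the others. NES and OTX2 overlapped between the numbers. Of 13 tested, 7 and 10 were called lower (7.93% and 5.78% of all genes). NANOG, NODAL and LEFTY2 of the first list and SIX6 of the second were under 1 CPM in all libraries. Non-neural ectoderm and amnion markers summed to between 484 and 552 CPM in number 3, against 310.2 to 529 CPM in number 2, which overlapped, and 279 to 431 CPM in number 1, with TFAP2A, GATA3, ISL1, HAND1, DLX5 and TP63 under 1 CPM throughout. Pluripotency sums of numbers 1 and 2 overlapped. The summed replication genes were 5982 ± 175 CPM in number 2, against 5124 ± 378 CPM in number 1. The part of these markers in the differences of the replication genes was not tested.

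**Figure D5:**
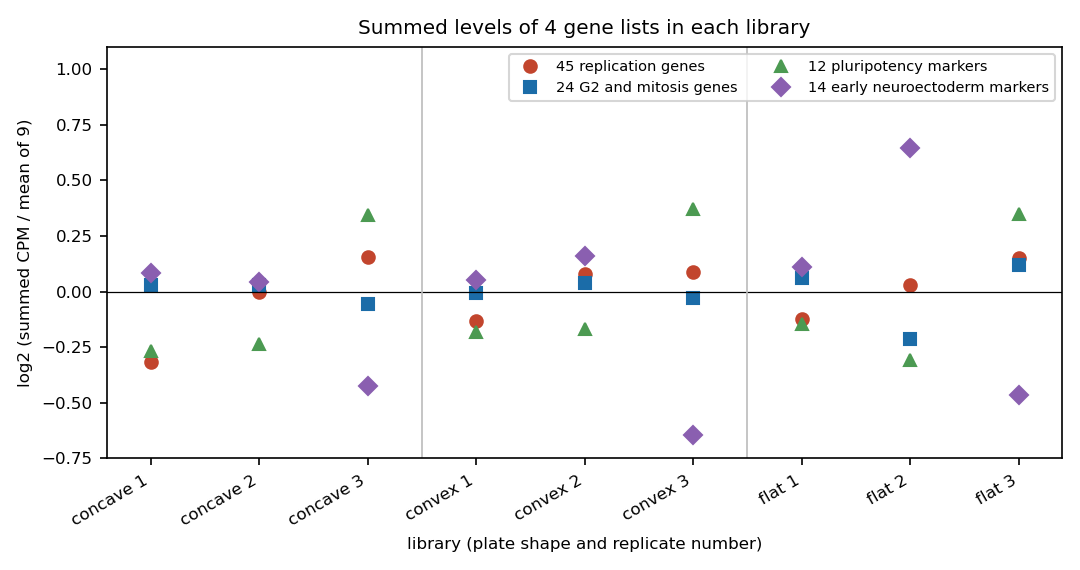
Summed CPM of 4 gene lists in each library, as log2 of the sum over its mean of 9 libraries. The 45 replication genes are lowest in concave 1, the pluripotency markers are highest and the early neuroectoderm markers lowest in the 3 libraries numbered 3, and the G2 and mitosis genes are lowest in flat 2.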

How the data were processed

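Per the submitters' processing notes, reads were aligned with HISAT2 to GRCh38 and counted with featureCounts, and the deposited table holds the authors' raw counts per gene. No source used here gives their versions, the annotation release or the strand setting of the counting, although the kit is strand-specific per the labels. All 9 columns were matched by name to their samples, and 0 other sample columns were present. Counts were scaled by TMM and tested with edgeR 4.0.16 in R 4.3.3 (filterByExpr, robust quasi-likelihood fit, Benjamini-Hochberg adjustment over 23075 genes). Plate shapes were compared in a model of shape, and replicate numbers in a model of shape and number. Gene positions and transcript lengths came from GENCODE v29 and promoter windows from RefSeq. Pair differences and per-gene deviations in the text use log2 CPM with a prior count of 2, and plots of log2 CPM use no prior count.

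The 45 genes, the other lists and the tests were chosen with earlier results of these data known. Values in every library are given, in each role, for the 2 genes of smallest p in the F test among numbers, for the one of smallest p among shapes, and for 10 genes fixed by name (MCM2, PCNA, CCNE1, CCNE2, E2F1, CDC6, CDT1, RRM2, TYMS and SLBP). Up to 3 genes of each other list are named, those of smallest p in the F test among numbers. MCM5, RFC1 and RPA1 and the genes named by a count or a single difference were added after their values were seen.

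Libraries of the same number deviated together for convex and flat (r = 0.372, 0.397 and 0.620 for numbers 1, 2 and 3) and for concave and convex (r = 0.579, 0.290 and 0.612). For concave and flat (r = 0.379, 0.0211 and 0.338) 1 pair fell under the minimum of 0.1, so these share only a number. Replicates of a shape differed by far more than counting noise, with a chi-square per degree of freedom of at least 19.7. Alternatives were other scalings and filters, DESeq2 1.42.0, limma voom 3.58.1, a transcript length correction, the replicate number as a block, and leaving out each library. The scripts were tested on simulated data. A search for a PCNA-binding motif in the proteins was not run.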

Additional observations from a re-analysis of the deposited data

How the results depend on the processing

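Between plate shapes 0 of the 45 genes were called under every setting run, and over all genes DESeq2 alone called any, 1 for convex against flat. With the replicate block the median differences from flat were -0.10 (concave) and -0.02 (convex), concave lay -0.07 from convex, and the block changed no call, with 0.506 and 0.264 as the smallest adjusted p of the 45 against flat for concave and convex (edgeR). For number 3 against number 1, the count of the 45 was 2 with library size alone, 3 with upper-quartile scaling, 5 with no filter, 17 with the length correction, 3 without both flat 2 and concave 1 (chosen after seeing the data) and 18 at an adjusted p under 0.1. Leaving out single libraries gave 0 to 20. The median was 0.17 with library size alone, 0.22 with upper-quartile scaling, and 0.19 to 0.34 without single libraries. For number 3 against number 2 the count was 0 with library size alone or without both libraries, 2 with a 1 CPM filter, DESeq2, limma voom or an adjusted p under 0.1, 3 with the length correction, and 0 to 2 without single libraries, and the median was 0.0152 with library size alone and 0.0151 to 0.16 without single libraries. For number 2 against number 1 the median was 0.12 to 0.24 without single libraries. The F test among numbers called 1 of the 45 with library size alone, upper-quartile scaling, no shape term or without both libraries, 11 with DESeq2, 12 with the length correction, 9 at an adjusted p under 0.1 and 0 to 17 without single libraries. Over all genes it called 4087 with no filter, 4465 with DESeq2, 4166 with the length correction, 4484 at an adjusted p under 0.1 and 352 to 4999 without single libraries. At an adjusted p under 0.1, 5193 genes were called for number 3 against number 1 and 4120 against number 2, with 566 to 6253 and 538 to 3193 without single libraries. Number 2 against number 1 gave 1 gene with DESeq2 size factors, 108 with no filter, 147 with DESeq2, 2 with the length correction, 1 at an adjusted p under 0.1 and 0 to 11 without single libraries. The cause of these changes was not tested. No direction of a median between numbers turned. Depth limits the scarcest gene, CCNE2, most, with 64 counts in its lowest library.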

Other observations

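Markers of cells outside the neural path ran from scarce to plentiful by list, and each list sum rested on few of its genes. The 8 mesendoderm markers summed to between 8.71 and 13.0 CPM in libraries numbered 3, against 4.25 to 6.65 CPM in those numbered 2 and 4.39 to 6.75 CPM in those numbered 1, with MIXL1, EOMES, SOX17, GSC and MESP1 under 1 CPM in all 9. FOXA2 had 5.13 to 10.5 CPM in number 3 and at most 0.659 CPM in the other libraries, while TBX6 was lower in number 3. Of 5 tested, 1 was higher and 1 lower in number 3 than in number 1 (edgeR), where 6.74% of all genes were higher and 7.93% lower. Of 5 tested non-neural ectoderm and amnion markers 2 were higher and 0 lower, and KRT8 and KRT18 made most of that list's sum. The 10 fibroblast, endothelial and blood markers summed to between 1247 and 1713 CPM in number 3, against 807 to 861 CPM in number 2 and 1023 to 1480 CPM in number 1, and of 5 tested 1 was higher and 3 lower in number 3 than in number 1. COL1A1, at 462 to 1401 CPM, and COL1A2, at 219 to 410 CPM, made most of that sum. COL1A2, PECAM1 and CDH5 were lower in number 3 than in the other libraries, and KDR was higher. PECAM1 and CDH5 had at most 3.14 CPM. COL3A1, DCN, LUM, PTPRC and HBG1 were under 1 CPM in all libraries.

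Of the 45 replication genes, 33 had more spread between the means of the replicate numbers than between those of the plate shapes (73.3%), against 61.9% of 11954 genes of at least 5 CPM.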
